A study of Homo sapiens with 6 samples.

Results

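Matrix metalloproteinases (MMPs), the ADAM and ADAMTS metalloproteinases with their ADAMTS-like relatives, and the tissue inhibitors of metalloproteinases (TIMPs) were followed in Ewing sarcoma cells in which either partner gene of the EWSR1-FLI1 fusion was targeted by siRNA. Members were set by a rule on names, which takes every gene symbol that is MMP, ADAM, ADAMTS, ADAMTSL or TIMP followed only by a number. This gave 72 of the 26931 gene symbols in the files: 22 MMPs, 22 ADAMs, 19 ADAMTSs, 5 ADAMTS-like genes and 4 TIMPs. Genes whose names carry a trailing letter, such as MMP23B, fell outside it.

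MMPs are zinc-dependent endopeptidases that are made as inactive zymogens and, once activated, cleave collagens, gelatins, proteoglycans and other proteins outside the cell. Most ADAMs sit in the plasma membrane, where the active ones shed the outer parts of receptors, ligands and adhesion proteins, whereas ADAMTS enzymes are secreted and cut procollagens, proteoglycans and other matrix proteins. TIMPs bind the active site of these enzymes, and the balance of enzyme to inhibitor in tumours has long been studied in relation to invasion.

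TC32 is an established line of Ewing sarcoma, a bone and soft tissue tumour whose usual fusion joins the 5′ part of EWSR1, a gene for an RNA-binding protein, to the 3′ part of FLI1, a gene for an ETS transcription factor. All 6 libraries are of TC32, with no engineered allele named. The cells had received siNeg (control siRNA), siEWSR1 (siRNA to EWSR1) or siFLI1 (siRNA to FLI1) 48 h before their total RNA was taken, and each group has 2 libraries. Which part of each gene was targeted is not stated in the labels, and an siRNA to either gene can also meet the transcripts of the unrearranged allele. One cell line was used, and whether the 2 libraries of a group came from separate cultures is not said, so the p-values reflect the spread of these samples alone, and that spread may be technical.

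The deposited values are FPKM (fragments scaled to transcript length and to the library's total), which allow levels of different genes to be compared per length. EWSR1 stood at 46.5 and 47.2 FPKM with siNeg, 34.6 and 32.3 after siEWSR1, and 51.2 and 50.2 after siFLI1, and FLI1 at 10.9 in each of the siNeg libraries, 10.4 and 10.6 after siEWSR1, and 8.98 and 8.56 after siFLI1. Both gene values sum the fusion with the unrearranged transcripts. The depth implied by the deposited intervals ran from 15159073 to 16298374 fragments, and 12079 to 12741 genes reached 1 FPKM. All 7 Ewing sarcoma markers were at 1 FPKM or more in every library, and their summed level was 988 to 1011 FPKM with siNeg, 488 to 598 with siEWSR1 and 524 to 572 with siFLI1. Summed FPKM was 2.80 to 4.01 across all libraries for 9 epithelial markers, and 3.31 to 4.98 for 9 blood markers, highest with siFLI1. ESRP1, of the epithelial list, fell by 1.97 with either siRNA on the log2 scale by limma. Its mean went from 1.82 FPKM to 0.073 and 0.075, whereas CLDN4 rose by 1.37 and 1.72 and KRT14 by 0.498 and 0.508. ESRP1 reached 1 FPKM only in the siNeg libraries, and CLDN4 and KRT14 only in the knockdown libraries. The filter for testing, given below, thus favoured each of these calls. The 7 endothelial markers were each under 1 FPKM. Their sum was 0.499 to 0.548 with siNeg, 1.42 to 1.54 with siEWSR1 and 1.41 to 1.44 with siFLI1. For 6 fibroblast markers it was 35.7 to 37.4 with siNeg, 45.4 to 47.4 with siEWSR1 and 47.1 to 48.2 with siFLI1, and its members went opposite ways by limma. THY1 fell by 0.46 and 0.56 on the log2 scale, PDGFRB rose by 0.63 and 0.73, and PDGFRA rose by 3.55 and 3.64, from a mean of 0.323 FPKM to 9.17 and 9.79. PDGFRA passed the filter through the knockdown libraries alone. Without it, 1 tested fibroblast marker rose and 1 fell with each siRNA (median 0.09 with either). FAP and LUM were listed at 0 in both siNeg libraries and stood at 0.121 to 0.700 in the other 4, and PI16 stayed at or under 0.0889. The part of these marker levels in the results below was not tested. In RNA from a whole culture, a change in the share of cells that express a gene and a change in RNA per cell cannot be told apart.

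The promoters of 4 members that the results turn on are printed first, because they show how different the control regions of these genes are. TIMP3 had the largest fitted rise and MMP11 one of the largest, MMP14 is the most abundant membrane-type MMP, and MMP10 went the other way with siEWSR1. Each sequence is the 250 bases before the annotated start, written 5′ to 3′ on the gene's strand, from RefSeq on GRCh38.p14: TIMP3 at chr22:32801455-32801704 (+), MMP14 at chr14:22836335-22836584 (+), MMP11 at chr22:23772599-23772848 (+) and MMP10 at chr11:102780629-102780878 (-). Capitals mark matches, on either strand, to 5 short motifs. The GC box was searched as GGGCGG, the CCAAT motif by that name and the box near the start of many genes as TATAAA. A pair of the cores that ETS factors recognise was searched as GGAAGGAA, and the AP-1 type of motif as TGANTCA.
TIMP3: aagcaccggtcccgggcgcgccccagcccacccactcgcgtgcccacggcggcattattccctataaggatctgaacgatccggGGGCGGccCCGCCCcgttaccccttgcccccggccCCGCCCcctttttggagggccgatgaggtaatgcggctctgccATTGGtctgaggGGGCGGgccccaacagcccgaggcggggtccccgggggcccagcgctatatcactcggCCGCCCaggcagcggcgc
MMP14: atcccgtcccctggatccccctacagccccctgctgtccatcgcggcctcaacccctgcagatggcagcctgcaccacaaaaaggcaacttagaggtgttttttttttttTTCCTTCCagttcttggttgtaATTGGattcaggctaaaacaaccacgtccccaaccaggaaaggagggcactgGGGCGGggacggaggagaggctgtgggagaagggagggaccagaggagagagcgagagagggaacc
MMP11: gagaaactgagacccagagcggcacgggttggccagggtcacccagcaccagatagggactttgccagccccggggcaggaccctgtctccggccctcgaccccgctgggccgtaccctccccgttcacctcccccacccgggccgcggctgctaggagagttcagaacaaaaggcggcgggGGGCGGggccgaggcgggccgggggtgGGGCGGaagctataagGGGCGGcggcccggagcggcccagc
MMP10: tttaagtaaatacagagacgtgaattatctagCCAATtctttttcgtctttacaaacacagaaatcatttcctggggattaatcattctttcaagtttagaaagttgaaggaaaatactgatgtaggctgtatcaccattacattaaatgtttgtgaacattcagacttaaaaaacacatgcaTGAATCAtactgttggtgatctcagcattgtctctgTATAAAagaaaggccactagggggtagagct

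The promoter windows differ in base composition and in the motifs they hold. TIMP3 had 5 GC boxes, with first bases 166, 158, 131, 76 and 18 bases before the start, and 1 CCAAT match at 88. MMP11 had 3 GC boxes, at 68, 41 and 25, and none of the other motifs. MMP14 had 1 GC box at 66, a CCAAT match at 118 and a GGAAGGAA match at 140. MMP10 had none of the GC boxes and held the TATAAA motif at position 31, the AP-1 type of motif at 67 and the CCAAT motif at 218. None of the marked matches overlapped another. Promoters were found for 43 of the 72 members, and for 18 of the 29 that were abundant enough to test. Among those 18, 16 held a GC box, against 42.6% of the 35116 promoters in the RefSeq table. CCAAT was in 6 of the 18 (32.0% of all promoters), TATAAA in 3 (10.7%: ADAMTS10, ADAMTSL2 and MMP10), GGAAGGAA in 3 (3.06%: ADAM10, MMP14 and TIMP1) and TGANTCA in 1, MMP10 (6.57%). The motifs were chosen after the sequences had been read, and a match is a description of the letters, not evidence of binding. The shares of all promoters are not a matched background. The 18 were abundant enough to test, whereas the 35116 are not limited to genes expressed in these cells. Those shares are also per entry, whereas ADAMTS10, with more than 1 entry, was counted once.

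Of the 72 members, 29 passed the filter of at least 1 FPKM in at least 2 of the 6 libraries and were tested: 9 MMPs, 6 ADAMs, 8 ADAMTSs, 3 ADAMTS-like genes and 3 TIMPs. Another 30 were above 0 in some library but had a highest value of 0.00035 to 0.819 FPKM, and 13 were listed at 0 in all 6. The number of members at 1 FPKM or more was 19 and 20 in the siNeg libraries, 24 in both siEWSR1 libraries, and 29 and 28 with siFLI1. Only 8 members were at 10 FPKM or more in every library: MMP2, MMP14, TIMP1, TIMP2, ADAM9, ADAM10, ADAM15 and ADAM17. The plot of FPKM per library shows all 29.

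**Figure D1:**
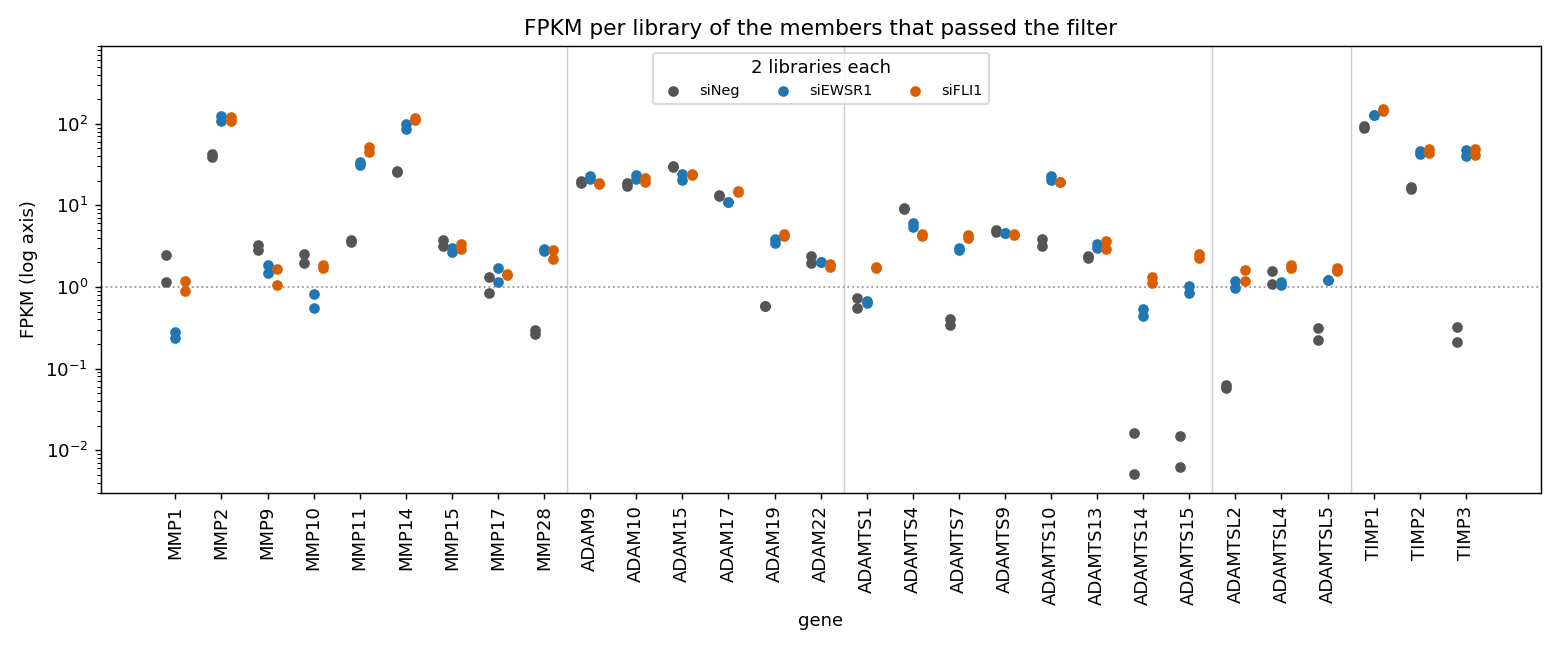
FPKM of the 29 tested members (log axis), 1 point per library, with siNeg in grey, siEWSR1 in blue and siFLI1 in orange; the dotted line marks 1 FPKM. TIMP3, at 0.213 and 0.323 with siNeg, lies between 40.1 and 48.6 in the other 4 libraries, whereas the points of ADAM9 and ADAM10 stay close together.

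Changes were tested with limma on log2(FPKM + 0.5), in 1 fit over all genes and libraries, with Benjamini-Hochberg adjustment over the 13043 genes that passed the filter. A gene is said to have risen or fallen where its adjusted p was under 0.05. Log2 changes are given with the standard error (SE) of the fit, and folds are on the same scale, which understates the change of genes with low values. Both siRNA groups were compared with the same siNeg libraries, so the 2 sets of changes are not independent of each other.

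With siEWSR1, 16 of the 29 tested members rose, 6 fell and 7 did not pass the test. Of all genes tested, 33.2% rose and 31.0% fell in that comparison. A change of at least 2-fold upward was called for 12 members (7.91% of all genes) and downward for 2 (4.59% of all genes). With siFLI1, 16 members rose, against 35.7% of all genes, 3 fell, against 29.6%, and 10 did not pass. At least 2-fold, 13 were higher (9.32% of all genes) and 1, ADAMTS4, was lower (4.59% of all genes). ADAMTS4 stood at the edge of that rule, and the count of 1 was 2 without siNeg replicate 1 or siFLI1 replicate 1 and 0 without siNeg replicate 2 or siFLI1 replicate 2 (limma). The median log2 change of the tested members was 0.38 with siEWSR1 and 0.68 with siFLI1, and over all genes tested it was 0.01 and 0.04. These counts lean upward by construction, since 9 of the 29 had no siNeg library at 1 FPKM and passed the filter through the knockdown libraries alone. The 9 were TIMP3, MMP28, ADAM19, ADAMTS1, ADAMTS7, ADAMTS14, ADAMTS15, ADAMTSL2 and ADAMTSL5. Of the 15 members that rose with both siRNAs, 8 are of this kind, and their calls below were favoured by the filter. Among the 19 members at 1 FPKM or more in both siNeg libraries, 8 rose and 6 fell with siEWSR1 (median -0.05), and 7 rose and 3 fell with siFLI1 (median 0.15). Of all genes at that level in both controls, 29.2% rose and 33.9% fell with siEWSR1, and 31.9% rose and 32.4% fell with siFLI1. With quantile normalization of the libraries the split of the 29 was 15 higher and 10 lower with siEWSR1, where ADAM22, ADAMTS1, ADAMTSL4 and MMP15 were also called lower. With siFLI1 it was 15 higher and 8 lower, where MMP1, MMP10, MMP15, ADAM22 and ADAMTS9 were also called lower. The share of all genes called was not counted under that normalization, so these splits have no background. The plot of changes against siNeg shows each member's value.

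**Figure D2:**
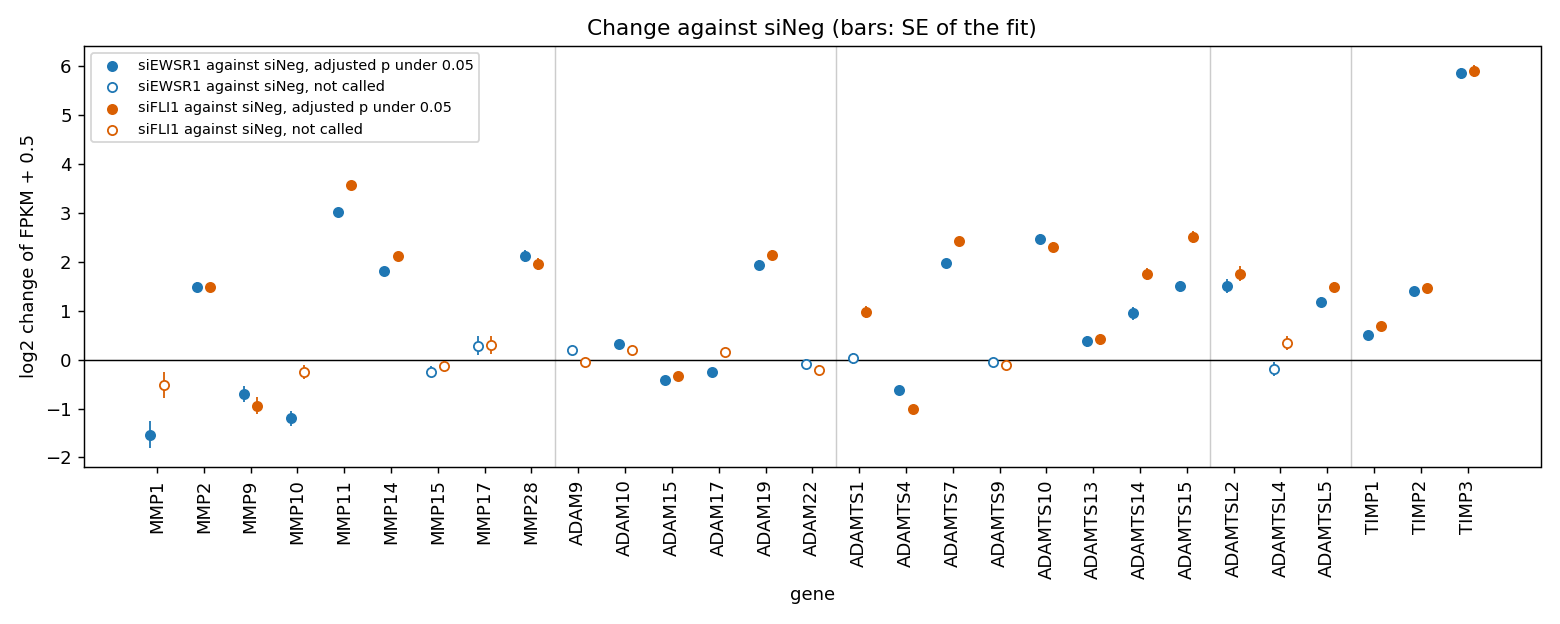
Log2 change of FPKM + 0.5 against siNeg for the 29 tested members, siEWSR1 in blue and siFLI1 in orange; filled points have an adjusted p under 0.05 and bars are the SE of the fit. TIMP3 has the highest points, at 5.84 and 5.90, and MMP1 with siEWSR1 the lowest, at -1.53.

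The inhibitors come first. TIMP3 (hg19, chromosome 22, 33196802 to 33259028) encodes the TIMP that stays bound to the extracellular matrix and also inhibits ADAM17 and several ADAMTS enzymes. Its level was 0.323 and 0.213 FPKM in the controls, at 40.1 and 47.2 with siEWSR1, and at 41.9 and 48.6 with siFLI1. TIMP3 was thus near the bottom of the range in both controls and among the abundant members in the other 4 libraries, with no overlap. Its log2 change was 5.84 ± 0.12 with siEWSR1 (adjusted p = 1.62e-06 by limma), a 57.4-fold rise, and 5.90 ± 0.12 with siFLI1 (adjusted p = 1.11e-06), a 59.6-fold rise. The size of that fold depends on the pseudocount: with 0.1 in place of 0.5 it was 120-fold and 124-fold, and with 1 it was 35.1-fold and 36.4-fold. TIMP3 lies within SYN3 on the annotation, and SYN3 itself reached no more than 0.104 FPKM.

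TIMP1 and TIMP2 were already well expressed in the controls. TIMP2 (hg19, chromosome 17, 76849059 to 76921472), which can link MMP14 to pro-MMP2 at the cell surface as well as inhibit MMPs, stood at 16.0 and 16.9 FPKM with siNeg, 42.3 and 46.8 after siEWSR1, and 44.0 and 48.6 after siFLI1. TIMP2 was higher in all 4 knockdown libraries than in either control, and its log2 change was 1.41 ± 0.08 with siEWSR1 (adjusted p = 2.59e-05 by limma) and 1.46 ± 0.08 with siFLI1 (adjusted p = 1.83e-05). TIMP1 (hg19, chromosome X, 47441690 to 47446190), a secreted inhibitor of most soluble MMPs, was the most abundant TIMP in every library. It stood at 93.9 and 88.9 FPKM with siNeg, 130 and 129 after siEWSR1, and 151 and 142 after siFLI1, so the 3 groups did not overlap. The log2 change of TIMP1 was 0.50 ± 0.06 with siEWSR1 (adjusted p = 0.0004 by limma) and 0.68 ± 0.06 with siFLI1 (adjusted p = 0.000104). TIMP4, a TIMP best known from heart and other muscle, did not pass the filter: it stood at 0.178 and 0.096 FPKM with siNeg, 0.601 and 0.723 after siEWSR1, and 0.551 and 0.507 after siFLI1.

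TIMP1 gave 85.0% and 83.8% of the summed TIMP level in the siNeg libraries. That share was 61.0% and 57.7% with siEWSR1, and 63.6% and 59.2% with siFLI1, with TIMP2 and TIMP3 making up nearly all the rest. Between the siRNAs to the fusion partners, no TIMP passed the test: the log2 difference, siEWSR1 minus siFLI1, was -0.05 ± 0.12 for TIMP3, -0.05 ± 0.08 for TIMP2 and -0.17 ± 0.06 for TIMP1 (adjusted p = 0.827, 0.714 and 0.133 by limma).

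Among the gelatinases, MMP2 and MMP9, the former rose and the latter fell. MMP2 (hg19, chromosome 16, 55512742 to 55540603), which cleaves denatured collagen and basement membrane collagen, stood at 38.9 and 42.4 FPKM with siNeg, 107 and 123 after siEWSR1, and 110 and 120 after siFLI1. The siEWSR1 and siFLI1 libraries overlapped each other and lay far above both controls. Its log2 change was 1.49 ± 0.09 with siEWSR1 (adjusted p = 3.18e-05 by limma) and 1.49 ± 0.09 with siFLI1 (adjusted p = 2.54e-05). MMP9, the other gelatinase, averaged 3.04 ± 0.29 FPKM (SD, n = 2) with siNeg, 1.68 ± 0.26 with siEWSR1 and 1.36 ± 0.41 with siFLI1. MMP9 fell by 0.70 on the log2 scale with siEWSR1 (adjusted p = 0.0111 by limma) and by 0.95 with siFLI1 (adjusted p = 0.00312). Without siNeg replicate 2, its fall with siEWSR1 did not pass the test (adjusted p = 0.0667).

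MMP14 was the membrane-type MMP with the highest level. MMP14 (hg19, chromosome 14, 23305742 to 23316808) encodes MT1-MMP, a membrane-anchored collagenase that activates pro-MMP2. Its level was 26.2 and 25.9 FPKM with siNeg, 86.2 and 98.2 after siEWSR1, and 110 and 117 after siFLI1, and the 3 groups did not overlap. The log2 change was 1.80 ± 0.07 with siEWSR1 (adjusted p = 9.76e-06 by limma), a 3.48-fold rise, and 2.10 ± 0.07 with siFLI1 (adjusted p = 4.99e-06), a 4.30-fold rise. MMP15 and MMP17, the other tested genes of the membrane-type group, did not pass in either comparison. MMP15 averaged 3.48, 2.85 and 3.15 FPKM with siNeg, siEWSR1 and siFLI1, and MMP17 averaged 1.07, 1.42 and 1.42.

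Stromelysin-type members moved in both directions. MMP11 (hg19, chromosome 22, 24115006 to 24126503), or stromelysin-3, is activated inside the cell by furin and was first described in the stroma of carcinomas. It stood at 3.53 and 3.75 FPKM with siNeg, 31.6 and 34.0 after siEWSR1, and 45.4 and 51.3 after siFLI1. The 3 groups were well apart, siFLI1 highest. Its log2 change was 3.01 ± 0.08 with siEWSR1 (adjusted p = 2.71e-06 by limma), an 8.04-fold rise, and 3.56 ± 0.08 with siFLI1 (adjusted p = 1.4e-06), an 11.8-fold rise. After TIMP3, MMP11 had the highest fitted change of the tested members in both comparisons at a pseudocount of 0.5 or 1. With 0.1 it rose 8.80-fold and 12.9-fold and was below ADAMTS15, at 9.37-fold and 22.6-fold.

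MMP10 and MMP1 are next to each other on chromosome 11, 9.3 kb apart on hg19, in a cluster of 9 MMP genes from 102391239 to 102826463, and they were the only 2 of the cluster to pass the filter. MMP10 (stromelysin-2, 102641233 to 102651359), which cleaves proteoglycans and can activate other MMPs, stood at 2.51 and 1.95 FPKM with siNeg, 0.821 and 0.560 after siEWSR1, and 1.72 and 1.84 after siFLI1. Both siEWSR1 libraries were below all others, and MMP10 fell by 1.20 ± 0.15 on the log2 scale with siEWSR1 (adjusted p = 0.000652 by limma). With siFLI1 its log2 change was -0.25 ± 0.15 (adjusted p = 0.182). MMP1 (102660641 to 102668966), interstitial collagenase, which cuts native fibrillar collagen, stood at 2.44 and 1.14 FPKM with siNeg, 0.239 and 0.279 after siEWSR1, and 1.20 and 0.889 after siFLI1. The 2 controls differed by more than a factor of 2, and siFLI1 replicate 1 lay above the lower of them. MMP1 fell by 1.53 ± 0.27 on the log2 scale with siEWSR1 (adjusted p = 0.00272 by limma), and its change with siFLI1 was -0.52 ± 0.27 (adjusted p = 0.134). That siFLI1 change rests on which control is used: it was -0.93 without siNeg replicate 2 (adjusted p = 0.00889) and -0.10 without siNeg replicate 1. The other 7 genes of the cluster (MMP7, MMP20, MMP27, MMP8, MMP3, MMP12 and MMP13) did not pass the filter, and MMP3 was the highest of them, at 0.0306 to 0.369 FPKM.

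MMP28 (hg19, chromosome 17, 34083268 to 34122711), or epilysin, is a secreted MMP activated by furin. It was at 0.299 and 0.262 FPKM with siNeg, 2.80 and 2.93 after siEWSR1, and 2.22 and 2.84 after siFLI1, above the controls in all 4 knockdown libraries. The log2 change was 2.11 ± 0.12 with siEWSR1 (adjusted p = 3.1e-05 by limma) and 1.95 ± 0.12 with siFLI1 (adjusted p = 3.31e-05).

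Summed over the 22 MMP genes, the level was 81.2 and 84.2 FPKM with siNeg, 237 and 265 after siEWSR1, and 278 and 302 after siFLI1. MMP2 and MMP14 made up 78.7% to 83.4% of it in every library. The summed TIMP level was 110 and 106 FPKM with siNeg, 213 and 224 after siEWSR1, and 238 and 239 after siFLI1. The ratio of the TIMP sum to the MMP sum was 1.36 and 1.26 in the controls, 0.899 and 0.844 after siEWSR1, and 0.856 and 0.794 after siFLI1, so it was above 1 in both controls and below 1 in the other 4 libraries. The ratio of MMP14 to TIMP2 was 1.63 and 1.53 with siNeg, 2.04 and 2.10 after siEWSR1, and 2.50 and 2.42 after siFLI1, whereas the ratio of MMP2 to TIMP2 stayed between 2.43 and 2.63. With 2 libraries a group no permutation test of such ratios can pass 0.05, and none was run. These are ratios of RNA levels and say nothing of protein or activity.

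**Figure D3:**
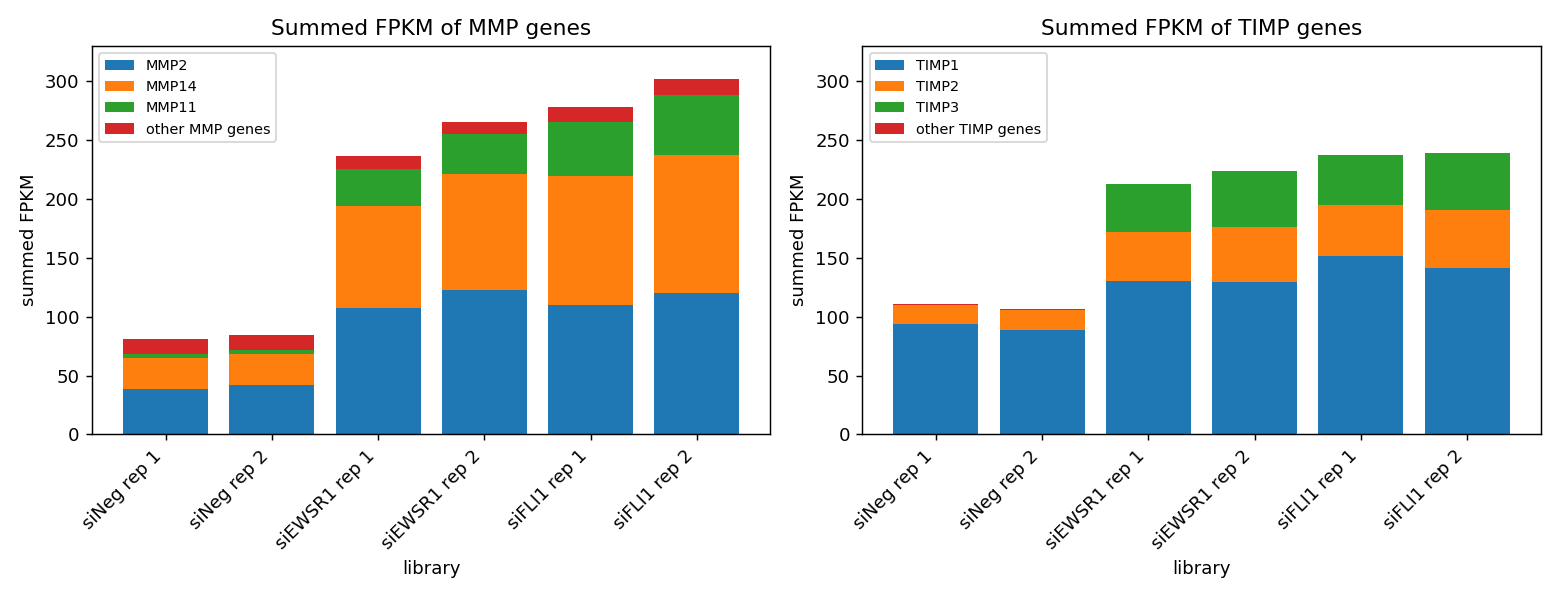
Summed FPKM of the MMP genes (left) and the TIMP genes (right) in each of the 6 libraries, stacked by gene. The MMP bars rise from 81.2 and 84.2 with siNeg to between 237 and 302, and the green TIMP3 segment appears only in the 4 knockdown libraries at this scale.

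The ADAMs differed from the MMPs in that their summed level hardly moved: it was 85.8 and 82.9 FPKM with siNeg, 84.5 and 86.6 after siEWSR1, and 84.1 and 86.6 after siFLI1. Most of it came from 4 sheddases, ADAM9, ADAM10, ADAM15 and ADAM17. ADAM10, which cleaves Notch receptors and many adhesion proteins, averaged 17.9 ± 1.22 FPKM (SD, n = 2) with siNeg, 22.4 ± 1.87 with siEWSR1 and 20.5 ± 1.34 with siFLI1. ADAM10 rose by 0.31 ± 0.09 on the log2 scale with siEWSR1 (adjusted p = 0.0178 by limma), and its change with siFLI1 was 0.19 ± 0.09 (adjusted p = 0.0898). The rise with siEWSR1 did not pass without siNeg replicate 2 (adjusted p = 0.105) or without siEWSR1 replicate 2 (adjusted p = 0.0749).

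ADAM17, the enzyme that releases TNF and several EGF receptor ligands, averaged 13.2 FPKM with siNeg, 11.0 with siEWSR1 and 14.7 with siFLI1. It fell by 0.25 ± 0.06 on the log2 scale with siEWSR1 (adjusted p = 0.00778 by limma), and its change with siFLI1 was 0.15 ± 0.06 (adjusted p = 0.0546). That siFLI1 change passed with no filter (adjusted p = 0.0423 by limma) and with mean FPKM of at least 5 (adjusted p = 0.0384). Without siNeg replicate 1 the fall did not pass (adjusted p = 0.0574). ADAM17 overlaps IAH1, which reached 27.0 FPKM, and reads of overlapping genes cannot be told apart where the strand setting is unknown. ADAM15, an ADAM with an integrin-binding motif, averaged 30.0, 22.3 and 23.7 FPKM and fell by 0.42 with siEWSR1 and by 0.34 with siFLI1 on the log2 scale (adjusted p = 0.00367 and 0.00935 by limma). The latter did not pass without siNeg replicate 2 (adjusted p = 0.0547) or without siFLI1 replicate 2 (adjusted p = 0.0566). ADAM9, a sheddase with a broad range of substrates, averaged 19.3, 22.0 and 18.6 FPKM, with log2 changes of 0.18 and -0.05 (adjusted p = 0.0515 and 0.516). Without siEWSR1 replicate 1 the siEWSR1 change of ADAM9 was 0.26. That rise passed by limma with mean FPKM of at least 5 (adjusted p = 0.0462), quantile normalization (adjusted p = 0.0308) or a robust variance trend (adjusted p = 0.046).

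Of the 6 tested ADAMs, ADAM19 had the highest fold, and it alone of them passed the filter only through the knockdown libraries. ADAM19 (hg19, chromosome 5, 156904312 to 157002831), or meltrin beta, is a sheddase of neuregulin. It was at 0.593 and 0.589 FPKM with siNeg, 3.43 and 3.92 after siEWSR1, and 4.22 and 4.41 after siFLI1, with no overlap between the 3 groups. The log2 change was 1.93 ± 0.09 with siEWSR1 (adjusted p = 1.51e-05 by limma) and 2.14 ± 0.09 with siFLI1 (adjusted p = 8.62e-06). ADAM22, which has no protease activity and serves as a receptor for LGI proteins in neurons, averaged 2.19, 2.03 and 1.83 FPKM and did not pass in either comparison.

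In the ADAMTS family, the members with proteoglycanase activity did not move together. ADAMTS4 (hg19, chromosome 1, 161159519 to 161168843), aggrecanase-1, stood at 9.10 and 9.32 FPKM with siNeg, 6.09 and 5.47 after siEWSR1, and 4.47 and 4.22 after siFLI1. It was highest in the controls and lowest with siFLI1, with no overlap. ADAMTS4 fell by 0.63 ± 0.07 on the log2 scale with siEWSR1 (adjusted p = 0.000488 by limma) and by 1.00 ± 0.07 with siFLI1 (adjusted p = 6.57e-05). ADAMTS15 (hg19, chromosome 11, 130318869 to 130346540), another aggrecan- and versican-cleaving enzyme, was at 0.00619 and 0.0151 FPKM with siNeg, 0.844 and 1.04 after siEWSR1, and 2.26 and 2.53 after siFLI1. The deposited 95% interval of both controls reached down to 0. ADAMTS15 rose by 1.49 ± 0.12 on the log2 scale with siEWSR1 (adjusted p = 0.000107 by limma) and by 2.50 ± 0.12 with siFLI1 (adjusted p = 1.36e-05).

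ADAMTS1, which also cleaves aggrecan and versican, averaged 0.640 ± 0.126 FPKM (SD, n = 2) with siNeg, 0.654 ± 0.030 with siEWSR1 and 1.72 ± 0.023 with siFLI1. With siFLI1 it rose by 0.97 ± 0.12 on the log2 scale (adjusted p = 0.000504 by limma), with a siEWSR1 change of 0.02 ± 0.12 (adjusted p = 0.882). Quantile normalization turned that small siEWSR1 change into a fall of the size -0.65 (adjusted p = 0.00376). ADAMTS9, a further versicanase, averaged 4.84, 4.65 and 4.41 FPKM, with log2 changes of -0.05 and -0.12 that did not pass the test.

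ADAMTS10 (hg19, chromosome 19, 8645124 to 8675620), which binds fibrillin-1 and takes part in microfibril assembly, was the ADAMTS with the highest level in the knockdown libraries. It stood at 3.21 and 3.88 FPKM with siNeg, 23.0 and 20.6 after siEWSR1, and 19.3 and 19.5 after siFLI1, so that both knockdown groups were above the controls, and their direct difference of 0.16 ± 0.10 did not pass the test (adjusted p = 0.369 by limma). The log2 change was 2.46 ± 0.10 with siEWSR1 (adjusted p = 8.64e-06 by limma) and 2.31 ± 0.10 with siFLI1 (adjusted p = 8.41e-06). ADAMTS7 (hg19, chromosome 15, 79051545 to 79103805), which degrades cartilage oligomeric matrix protein (COMP), was at 0.341 and 0.408 FPKM with siNeg, 3.01 and 2.82 after siEWSR1, and 3.95 and 4.36 after siFLI1. All 3 groups were apart, and ADAMTS7 rose by 1.97 ± 0.09 with siEWSR1 (adjusted p = 1.71e-05 by limma) and by 2.41 ± 0.09 with siFLI1 (adjusted p = 7.18e-06) on the log2 scale.

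ADAMTS14 (hg19, chromosome 10, 72432262 to 72522195) encodes a procollagen N-propeptidase, which trims fibrillar procollagens. It was at 0.0163 and 0.00514 FPKM with siNeg, 0.439 and 0.531 after siEWSR1, and 1.32 and 1.11 after siFLI1, rising from controls whose deposited intervals reached 0. The log2 change was 0.95 ± 0.13 with siEWSR1 (adjusted p = 0.000965 by limma) and 1.74 ± 0.13 with siFLI1 (adjusted p = 6.88e-05). With quantile normalization the siEWSR1 change of ADAMTS14 was 0.12 and did not pass (adjusted p = 0.571). ADAMTS13, the protease that cuts von Willebrand factor, averaged 2.33, 3.18 and 3.29 FPKM and rose by 0.38 and 0.41 on the log2 scale (adjusted p = 0.0225 and 0.0155 by limma). ADAMTS13 lost its call with either siRNA under quantile normalization (adjusted p = 0.234 with siEWSR1 and 0.196 with siFLI1), and with siEWSR1 when no filter was set (adjusted p = 0.0618). Without siNeg replicate 1 the adjusted p was 0.105 and 0.0801. It was 0.0615 with siEWSR1 without siNeg replicate 2, 0.0906 with siEWSR1 without siEWSR1 replicate 1, and 0.0775 with siFLI1 without siFLI1 replicate 1. ADAMTS13 also overlaps REXO4, which reached 23.8 FPKM.

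ADAMTS-like proteins share the accessory domains of the ADAMTS enzymes but have no protease domain. ADAMTSL2 (hg19, chromosome 9, 136397286 to 136440641), a microfibril-associated protein, was at 0.0578 and 0.0624 FPKM with siNeg, 1.20 and 0.984 after siEWSR1, and 1.19 and 1.62 after siFLI1. Its log2 change was 1.50 ± 0.15 with siEWSR1 (adjusted p = 0.000244 by limma) and 1.76 ± 0.15 with siFLI1 (adjusted p = 0.000114). ADAMTSL5 (hg19, chromosome 19, 1505017 to 1513188), which also binds fibrillin microfibrils, was at 0.222 and 0.311 FPKM with siNeg, 1.23 and 1.22 after siEWSR1, and 1.69 and 1.59 after siFLI1. Both genes were under 1 FPKM in the controls and above them in every knockdown library. ADAMTSL5 rose by 1.17 ± 0.11 with siEWSR1 (adjusted p = 0.000192 by limma) and by 1.48 ± 0.11 with siFLI1 (adjusted p = 6.57e-05) on the log2 scale. ADAMTSL4, linked to the fibrillin fibres of the lens, averaged 1.34, 1.10 and 1.79 FPKM, and its changes of -0.18 and 0.33 did not pass (adjusted p = 0.296 and 0.082). Without siNeg replicate 2 the siFLI1 change of ADAMTSL4 was 0.52 and passed (adjusted p = 0.021 by limma). ADAMTSL4 overlaps MIR4257, a microRNA gene listed at 1438 FPKM in siFLI1 replicate 2 and at 0 in the other 5 libraries, and ADAMTSL4-AS1, which reached 0.156. Summed over the ADAMTS and ADAMTS-like genes, the level was 22.0 and 23.8 FPKM with siNeg, 46.7 and 43.0 after siEWSR1, and 47.3 and 47.4 after siFLI1.

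For members near 0 in the controls the fitted size follows the pseudocount, although the direction did not. With a pseudocount of 0.1 in place of 0.5, ADAMTS15 rose 9.37-fold with siEWSR1 and 22.6-fold with siFLI1, against 2.81-fold and 5.67-fold. ADAMTS14 rose 5.27-fold and 11.8-fold, against 1.93-fold and 3.35-fold, and ADAMTSL2 rose 7.41-fold and 9.30-fold, against 2.84-fold and 3.38-fold. MMP28 rose 7.79-fold and 6.86-fold, against 4.31-fold and 3.86-fold, and ADAMTS7 rose 6.37-fold and 8.97-fold, against 3.91-fold and 5.32-fold. ADAMTSL5 rose 3.64-fold and 4.78-fold, against 2.26-fold and 2.80-fold. With a pseudocount of 1, all 6 had smaller folds in both comparisons, with MMP28 at 3.02-fold and 2.74-fold and ADAMTS15 at 1.92-fold and 3.36-fold.

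The 43 members that did not pass the filter are genes mostly silent in these cells. Those listed at 0 in all 6 libraries were MMP7, MMP8, MMP12, MMP26, MMP27, ADAM2, ADAM5, ADAM6, ADAM7, ADAM18, ADAM29, ADAM30 and ADAMTS18. MMP7 is matrilysin, MMP8 the neutrophil collagenase and MMP12 the macrophage elastase, and several of these ADAMs are known from testis. Of the 30 above 0, MMP19, a secreted MMP outside the main subgroups, was highest: it was at 0.0258 and 0.0554 FPKM with siNeg, 0.442 and 0.517 after siEWSR1, and 0.819 and 0.642 after siFLI1. ADAMTS16 was at 0.0496 and 0.0538 FPKM with siNeg, 0.222 and 0.232 after siEWSR1, and 0.631 and 0.650 after siFLI1. ADAMTS17, a relative of ADAMTS10 also tied to microfibrils, was at 0.0331 and 0.0447 with siNeg, 0.437 and 0.408 after siEWSR1, and 0.563 and 0.463 after siFLI1. ADAM8, known from leukocytes, was at 0.0541 and 0.0584, then 0.362 and 0.484, then 0.375 and 0.281 FPKM in the same order of groups. For each of these 4 genes, picked after their values were seen, all knockdown libraries were above both controls. Others of the 30, such as TIMP4, ADAM11 and MMP24, were apart in the same way. The share of all genes below the filter with such a separation was not counted. MMP19 overlaps TMEM198B, which reached 14.0 FPKM, so the low values of MMP19 are uncertain.

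The remaining low members spanned these ranges over the 6 libraries. ADAM11 was at 0.385 to 0.706 FPKM, MMP24 at 0.135 to 0.422, MMP3 at 0.0306 to 0.369, ADAM23 at 0.177 to 0.349, MMP25 at 0.119 to 0.253 and ADAM32 at 0.121 to 0.239. ADAM20 was at 0.0425 to 0.212, ADAM28 at 0.0187 to 0.171, ADAMTSL3 at 0.0197 to 0.170, ADAMTS12 at 0.00611 to 0.170, ADAM12 at 0.0421 to 0.131, ADAM21 at 0.0391 to 0.113 and ADAMTS2 at 0.0219 to 0.103. MMP13, MMP16, MMP20, MMP21, ADAM33, ADAMTS3, ADAMTS5, ADAMTS6, ADAMTS8, ADAMTS19, ADAMTS20 and ADAMTSL1 had highest values of 0.00035 to 0.0807. ADAMTS8 stands 20.0 kb from ADAMTS15 on chromosome 11 and did not pass the filter, and ADAMTS5 is 72.5 kb from ADAMTS1 on chromosome 21 and reached 0.00591. MMP24 overlaps an antisense gene, MMP24-AS1, that reached 25.1 FPKM, so its low value is uncertain. When the fit was run with no filter on level, 9 of these 30 were called higher and 1 lower (ADAM12) with siEWSR1, and 10 were called higher with siFLI1. Over all genes of that fit, 24.2% were called higher and 18.6% lower with siEWSR1, and 26.5% higher and 17.9% lower with siFLI1. Of the 8892 of them that were below the filter, 15.4% were called higher and 4.61% lower with siEWSR1, and 17.4% higher and 4.50% lower with siFLI1.

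**Figure D4:**
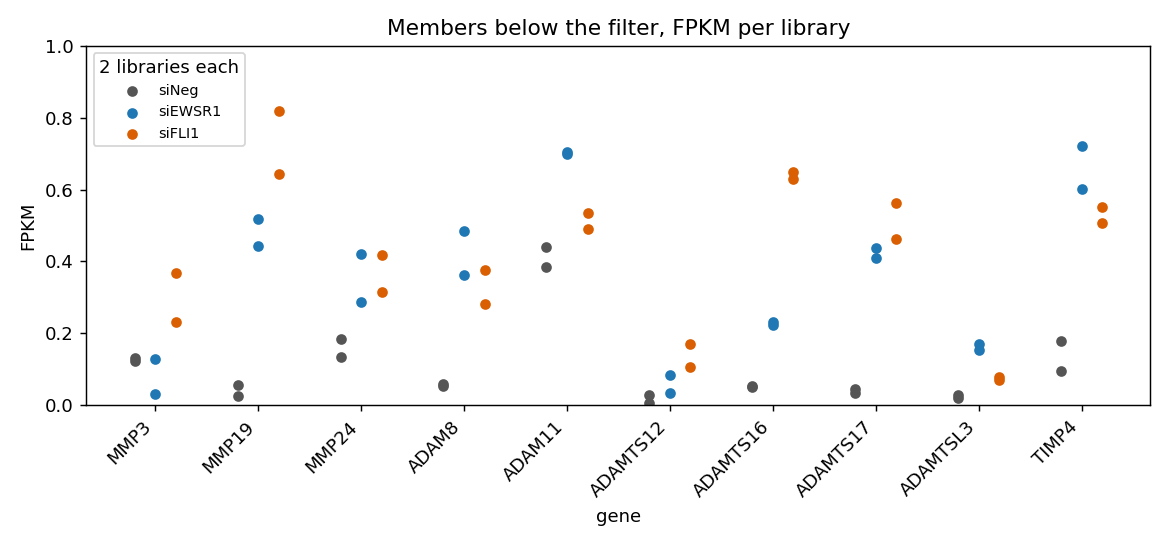
FPKM (linear axis) of 10 members below the filter, picked after their values were seen, 1 point per library, with siNeg in grey, siEWSR1 in blue and siFLI1 in orange. MMP19 and ADAMTS16 are highest with siFLI1, TIMP4 and ADAMTSL3 highest with siEWSR1, and every value is under 1 FPKM.

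siEWSR1 was then compared with siFLI1 directly, since a change called with one siRNA only does not show that the siRNAs differ. Of the 29 tested members, 6 were lower with siEWSR1 (limma, adjusted p under 0.05), against 3.07% of all genes. The count of higher members was 0, against 0.790% of all genes. At an unadjusted p under 0.05 by limma, 12 were lower and 2 higher (ADAM9 and ADAMTS4). The share of all genes at that unadjusted threshold was not counted, so the counts of 12 and 2 have no background. The 6 were ADAMTS15, with a log2 difference of -1.01 ± 0.12 (adjusted p = 0.017), ADAMTS1, with -0.95 ± 0.12 (adjusted p = 0.018), and MMP10, with -0.95 ± 0.15 (adjusted p = 0.0324). The others were ADAMTS14, with -0.80 ± 0.13 (adjusted p = 0.0343 by limma), MMP11, with -0.55 ± 0.08 (adjusted p = 0.0254), and ADAM17, with -0.40 ± 0.06 (adjusted p = 0.0246). They are of 2 kinds: ADAMTS15, ADAMTS14 and MMP11 rose with either siRNA and stood higher with siFLI1, while MMP10 and ADAM17 fell with siEWSR1 and ADAMTS1 rose with siFLI1. ADAMTS15, ADAMTS14 and ADAMTS1 would not have passed the filter without the siFLI1 libraries, so the count of 6 leans this way by construction. Among the 19 members at 1 FPKM or more in both siNeg libraries, 3 were lower with siEWSR1 and 0 higher. The share of all genes at that level was not counted for the direct comparison.

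The difference did not pass the test for MMP1 (-1.02 ± 0.27, adjusted p = 0.0884 by limma), although its fall was called with siEWSR1 and not with siFLI1. It also did not pass for ADAM10 (0.12 ± 0.09, adjusted p = 0.453), MMP14 (-0.30 ± 0.07, adjusted p = 0.0749), ADAMTS7 (-0.44 ± 0.09, adjusted p = 0.0564) or ADAMTS4 (0.37 ± 0.07, adjusted p = 0.05001). ADAMTS4 was called higher with pseudocount 1, quantile normalization, median centring or a robust variance trend (adjusted p = 0.03551 to 0.04825 by limma). ADAMTS7 was called lower with pseudocount 1, quantile normalization, no variance trend or a robust one (adjusted p = 0.04239 to 0.04799 by limma). With no filter on level, none of the 6 passed, with adjusted p between 0.05004 for ADAMTS15 and 0.0939 for MMP10. Leaving out single libraries also ended many of these calls. Without siFLI1 replicate 1 or without siFLI1 replicate 2, the 6 calls were lost. The direct difference was then -1.08 and -0.94 for ADAMTS15, and -0.42 and -0.38 for ADAM17. Without siNeg replicate 2 or siEWSR1 replicate 2, 1 lower member was called, without siNeg replicate 1 there were 2, and without siEWSR1 replicate 1 there were 5. The plot of direct differences shows their SE.

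**Figure D5:**
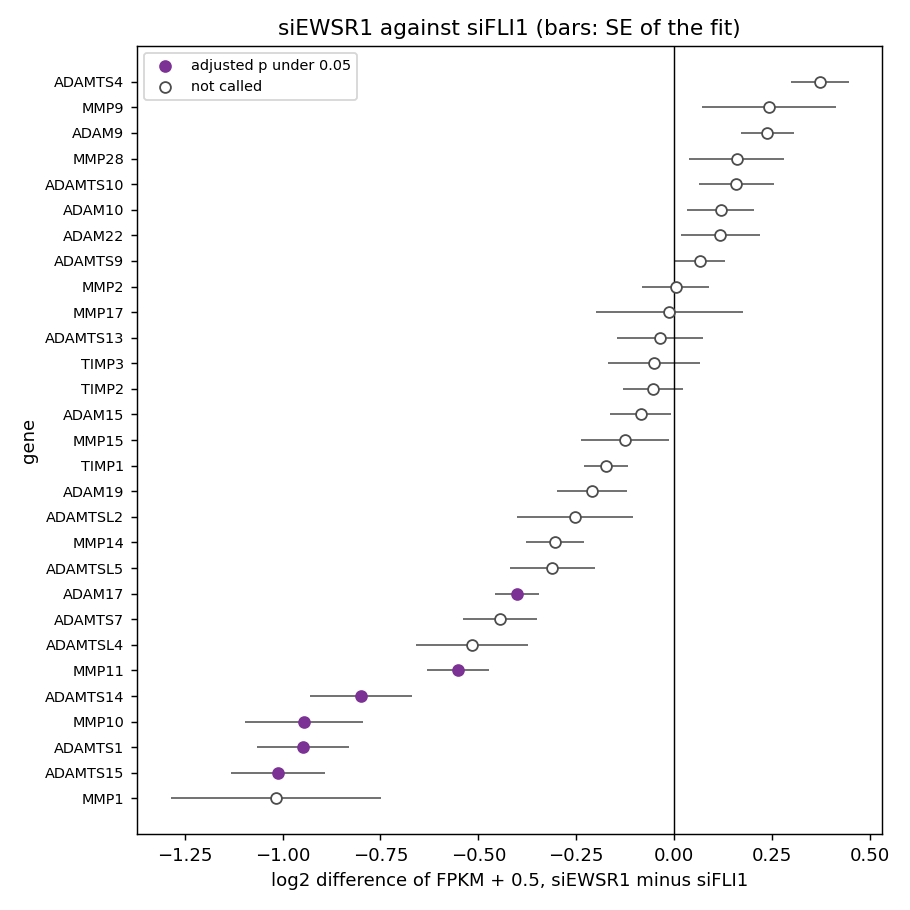
Log2 difference of FPKM + 0.5, siEWSR1 minus siFLI1, for the 29 tested members, sorted; filled points have an adjusted p under 0.05 and bars are the SE of the fit. The 6 filled points lie between -1.01 and -0.40, and the open point of MMP1 at the bottom has the widest bar.

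Genes that act on these proteases were read from lists that also hold genes outside the name rule. The shares of all tested genes given above, 33.2% rising and 31.0% falling with siEWSR1 and 35.7% and 29.6% with siFLI1, are the background for each count of these lists. The lists, those of substrates included, were chosen with earlier results of these data known. Their counts are thus descriptions and not independent of the data. Of 7 inhibitors of other families, 3 were tested. A2M, alpha-2-macroglobulin, which traps proteases of all classes, averaged 0.260 FPKM with siNeg, 7.05 with siEWSR1 and 7.42 with siFLI1, and rose by 3.31 ± 0.12 and 3.38 ± 0.12 on the log2 scale (adjusted p = 7.09e-06 and 5.48e-06 by limma). TFPI2, a Kunitz-type inhibitor held in the matrix, rose by 0.69 and 1.27. RECK, a membrane-anchored MMP inhibitor, rose by 0.32 with siEWSR1 and had a change of 0.14 with siFLI1 (adjusted p = 0.265). A2M and TFPI2 had no siNeg library at 1 FPKM and passed the filter only through the knockdown libraries, so the filter favoured genes that rose.

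Of 8 genes for the proprotein convertases and the plasmin system, which activate MMP and ADAM zymogens, 5 were tested, and 4 rose and 1 fell with each siRNA (median log2 change 0.77 with siEWSR1 and 0.97 with siFLI1). PLAU, urokinase, rose by 2.19 and 2.50 on the log2 scale. PLAT, tissue plasminogen activator, averaged 0.223 FPKM with siNeg, 2.30 with siEWSR1 and 6.47 with siFLI1, rising by 1.94 and 3.27, and the direct difference was -1.33 ± 0.14 (adjusted p = 0.0134 by limma). FURIN, which removes the propeptide of MMP11, MMP14 and MMP28, rose by 0.77 and 0.97. The 1 that fell was PLAUR, the urokinase receptor, at -0.83 and -0.75, and PLG, plasminogen itself, stayed at or under 0.0328 FPKM. PLAT passed the filter through the knockdown libraries alone, and without it 3 rose and 1 fell with each siRNA (median 0.63 and 0.76).

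Of 9 chaperones and partners of ADAM10 and ADAM17, 8 were tested, and 6 rose and 0 fell with each siRNA by limma (median log2 change 0.32 and 0.45). At an unadjusted p under 0.05 none fell either, a threshold at which the share of all genes was not counted. FRMD8, which stabilises the iRhom and ADAM17 complex at the cell surface, rose by 1.62 with siEWSR1 and 1.97 with siFLI1. RHBDF1 (iRhom1) rose by 0.72 and 0.80, RHBDF2 (iRhom2) by 0.56 and 0.60, and TSPAN17, a tetraspanin that carries ADAM10, by 0.35 and 0.55. Of 6 inducers and receptors for MMPs and TIMPs, 5 were tested, of which 4 rose with siEWSR1 and 5 with siFLI1 (median 0.79 and 0.95). LRP1, which clears MMPs and their inhibitors from the cell surface, rose by 1.55 and 1.24, CD44, which docks MMP9 and MMP14, by 0.85 and 1.00, CD63, a TIMP1 receptor, by 0.79 and 0.95, and ITGAV by 0.29 and 0.60. CD44 passed the filter through the knockdown libraries alone, and without it 3 of 4 rose with siEWSR1 and 4 of 4 with siFLI1.

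Relatives outside the name rule were also tested for 7 of 13 genes, and 6 rose and 1 fell with each siRNA (median 1.39 and 1.83). BMP1, the procollagen C-proteinase, averaged 5.97 FPKM with siNeg, 25.8 with siEWSR1 and 28.7 with siFLI1, rising by 2.02 and 2.17 on the log2 scale. MME, neprilysin, rose by 1.56 and 2.06, ECE1, endothelin-converting enzyme, by 1.47 and 1.83, and PAPLN, papilin, an ADAMTS-like matrix protein, by 1.39 and 1.99. PAPPA, a metalloproteinase that cleaves IGF-binding proteins, fell: it averaged 22.1 FPKM with siNeg, 6.58 with siEWSR1 and 5.10 with siFLI1, with log2 changes of -1.71 ± 0.21 and -2.03 ± 0.21 (adjusted p = 0.000555 and 0.000243 by limma). PAPLN, TLL1 and MME had no siNeg library at 1 FPKM and passed only through the knockdowns, and among the other 4 relatives 3 rose and 1 fell with each siRNA (median 1.00 and 1.14).

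Known substrates were read last. Of 29 proteins shed by ADAMs, 20 were tested: with siEWSR1 10 rose and 6 fell, and with siFLI1 10 rose and 5 fell (median log2 change 0.24 and 0.38). L1CAM, a neural adhesion protein cut by ADAM10, rose by 2.54 and 3.30, EPHB2 by 1.98 and 1.96, AXL by 1.35 and 1.38, and NOTCH1 by 1.13 and 1.50. Those that fell included NRG1, a ligand shed by ADAM17 and ADAM19, at -1.19 and -0.98, ALCAM at -0.98 and -1.10, EGF at -0.79 and -0.83, PRNP at -0.36 and -0.32, and TNFRSF1A at -0.22 and -0.23. CDH2, N-cadherin, fell by 0.40 with siEWSR1 and had a change of -0.27 with siFLI1 (adjusted p = 0.0741 by limma). L1CAM and CX3CL1 passed the filter only through the knockdown libraries. Among the other 18 shed proteins, 8 rose and 6 fell with siEWSR1 (median 0.15), and 8 rose and 5 fell with siFLI1 (median 0.22). The falling share of the 20, 6 with siEWSR1, was close to the 31.0% of all genes. Of 25 matrix substrates of MMPs and ADAMTSs, 13 were tested. All of those 13 rose with siEWSR1, 12 rose with siFLI1, and the other, TNC, had a siFLI1 change of -0.05 (adjusted p = 0.379). COL1A1, a chain of type I collagen, averaged 7.50 FPKM with siNeg, 100 with siEWSR1 and 139 with siFLI1, log2 changes of 3.66 and 4.13. THBS1 rose by 3.65 and 3.80, COL5A1 by 3.01 and 2.89, and BGN, biglycan, by 2.70 and 2.68. The median log2 change of these 13 substrates was 1.62 with siEWSR1 and 2.10 with siFLI1. Genes of the list that were low in the controls and passed the filter through the knockdown libraries, THBS1 and COMP, are among the 13, so its count too leans upward by construction. Without them, 11 of 11 rose with siEWSR1 and 10 of 11 with siFLI1 (median 1.43 and 1.67).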

How the data were processed

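Gene-level FPKM values with the bounds of a 95% interval were deposited by the authors for 6 libraries, 2 per group. The submitters' processing notes name hg19, TopHat2 2.0.13, Cufflinks and Cuffdiff. For the annotation, the strand setting and multi-mapping reads, nothing is given in the sources used here. Each FPKM is a share of its own library, and reads of overlapping, antisense or near-identical genes cannot be told apart; 11 of the 29 tested members overlap another gene. Values of 380 symbols on more than 1 row were summed. The files hold no counts, so no count model was used. The depths given are implied by the interval widths.

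Gene starts in the files count from 0 and were converted to count from 1: among 23769 symbols shared with RefSeq's gene table, which is of another build, gene lengths were equal for 6149 read this way and for 579 read the other way. Promoter sequences are from RefSeq on GRCh38.p14, and no coordinate was carried between builds.

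Genes at 1 FPKM or more in at least 2 libraries (13043) were tested by limma 3.58.1 (R 4.3.3) after taking log2(FPKM + 0.5). One fit over all 6 libraries with a variance trend was used (3 residual and 3.39 prior degrees of freedom), with two-sided tests and Benjamini-Hochberg adjustment at 0.05. The fit was tested on simulated data. Alternatives, 16 in all, changed the pseudocount, filter, scaling, variance trend, samples, single libraries and replicate block.

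Each TIMP, and each member called with a log2 change of at least 1 in any comparison, is given in every library; other tested members by their means, and untested members by their range. Up to 4 genes per pathway list are named, plus those called against the rest of their list. The rule for members uses names and no values, but it and the lists were chosen with earlier results of these data known. Genes named outside this rule were chosen after values were seen (PLG, TNC, COMP, TLL1, CX3CL1, epithelial and fibroblast markers, IAH1 and other overlapping genes). So were the untested members given per library.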

Additional observations from a re-analysis of the deposited data

How the results depend on the processing

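Of 87 results (29 members in 3 comparisons), 52 kept their direction and their side of the threshold in every alternative that gave a value, and 35 changed in at least 1. Where a result changed, the cause was not tested, except that a stricter filter tests fewer genes. Apart from the fit with no filter against siNeg, the share of all genes called was not counted for these alternatives. With mean FPKM of at least 5, 12 of the 29 members were fitted. There, siEWSR1 against siNeg gave 9 members higher (6 at least 2-fold) and 3 lower (0 at least 2-fold). With the same filter, siFLI1 against siNeg gave 8 higher (6 at least 2-fold), and siEWSR1 against siFLI1 gave 2 lower. The fit with no filter also held the 30 members that were above 0 but below the filter. It gave 27 members higher with siFLI1, and 10 of them were among those 30. Its 1 lower member in the direct comparison was ADAMTS16, also of those 30 (-0.65 ± 0.04, adjusted p = 0.0266 by limma). Quantile normalization gave 10 lower with siEWSR1, 8 lower with siFLI1 (2 at least 2-fold) and 1 higher in the direct comparison. Median centring gave 2 lower at least 2-fold with siFLI1 and 1 higher directly, the robust trend 1 higher directly, and only the 4 libraries compared 2 lower directly. Pseudocount 0.1 gave 2 lower at least 2-fold with siFLI1. Pseudocount 1 gave 1 and 0 lower at least 2-fold with siEWSR1 and siFLI1, and 1 higher directly. Wherever 1 member was higher directly, it was ADAMTS4.

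Quantile normalization reversed ADAMTS1 with siEWSR1 (-0.65), ADAMTSL4 with siFLI1 (-0.019), MMP17 with siEWSR1 (-0.079) and siFLI1 (-0.096), and the direct differences of MMP17 (0.018), TIMP2 (0.018) and TIMP3 (0.015). Median centring reversed ADAMTS1 with siEWSR1 (-0.0053) and the direct difference of MMP17 (0.019). Leaving out 1 library at a time gave 0 to 2 members lower at least 2-fold with siFLI1 and 0 to 5 lower directly. Across these fits the direct difference ran from -0.19 to 0.022 for ADAM15, -0.17 to 0.096 for ADAMTS13, -0.22 to 0.19 for MMP17, -0.093 to 0.10 for MMP2, -0.13 to 0.018 for TIMP2 and -0.17 to 0.063 for TIMP3. The change with siEWSR1 ran from -0.19 to 0.020 for ADAM22, -0.092 to 0.14 for ADAMTS1 and -0.38 to 0.0089 for ADAMTSL4. The group left with 1 library was assumed to vary like the others.

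With the replicate number of the labels as a replicate block, 16 members were higher and 6 lower with siEWSR1, 16 higher and 3 lower with siFLI1, and 5 lower directly, ADAMTS14 losing its call (adjusted p = 0.0532). The labels do not say whether same-numbered libraries were handled together. Deviations of same-numbered libraries correlated at -0.14, -0.05 and 0.07, which cannot settle how they were handled. Depth limits the 43 members below the filter, for which a difference may not have been detectable.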
